A study of Oryza sativa with 48 samples.

Results

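The difference between 2 rice genotypes in their response to 3 days of complete submergence was measured in the lower leaves, which had stopped elongating. M202 is a japonica cultivar that lacks SUB1A, the main gene of submergence tolerance in rice, while in its near-isogenic partner, M202(Sub1), the Sub1 locus with that gene was bred into the same background. For each gene the log2 change of M202 from day 0 to day 3 was subtracted from the log2 change of M202(Sub1) over the same days. This value, called the difference of responses here, is positive where the level rose more or fell less in M202(Sub1). It rests on 12 of the 48 libraries of the series, 3 independent biological replicates, as the labels name them, in each of 4 groups (M202 at day 0, M202 on day 3, M202(Sub1) at day 0 and M202(Sub1) on day 3). All 21453 genes with enough counts, of 37830 in the table, were tested.

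The plants of both genotypes were grown in pots in a greenhouse and then submerged whole, and the labels name no further treatment. The comparison holds no day 3 group kept in air, so the passing of 3 days is part of each response. Total RNA of a leaf is a mixture, so fewer cells of a type and less RNA per cell cannot be told apart. M202(Sub1) is 1 line, and its donor segment carries other genes of the locus beside SUB1A.

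SUB1A encodes an ethylene response factor of group VII, a family of transcription factors that act under low oxygen. Plants without it spend their sugar reserves on outgrowing the water, while plants that carry it restrain shoot elongation and hold reserves back until the water falls. The gene is also known to delay the loss of chlorophyll that prolonged darkness or submergence brings on in mature leaves. A mature leaf under water loses light, gas exchange and, at night, oxygen, and changes its carbon metabolism, its antioxidant enzymes and its transport proteins along with its pigments. SUB1A itself is not analysed here.

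Of the tested genes, 1222 passed the adjusted threshold of 0.05 in the difference of responses (quasi-likelihood F test of edgeR, Benjamini-Hochberg over all tested genes), which was 5.70% of those tested. The response was higher in M202(Sub1) for 476 genes (2.22%) and lower for 746 (3.48%). Each genotype's own response was far broader: 10991 genes (51.2%) passed in M202 and 11219 (52.3%) in M202(Sub1). The median absolute difference of responses of the called genes was 1.1 on the log2 scale. It exceeded 1, a 2-fold difference, in 693 of them, and it exceeded 2 in 77 of the higher and 124 of the lower genes.

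The called genes were described by how each genotype itself moved. The most frequent pattern was a fall in both genotypes that was larger in M202(Sub1), in 297 genes (24.3% of the called), where the median change (log2) was -0.988 for M202 and -2.2 for M202(Sub1). A rise that was smaller in M202(Sub1) was found in 222 genes, and estimates of opposite sign, rising in M202 and falling in M202(Sub1), in 227. On the other side, 201 genes had a larger rise in M202(Sub1), 185 had opposite signs with the higher value in M202(Sub1), and 90 had a smaller fall. The own response passed the threshold in both genotypes for 673 of the 1222 genes, in M202 alone for 262 and in M202(Sub1) alone for 287.

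Most of these differences were between submerged leaves rather than between the leaves at the start. At day 0 the genotypes differed in 588 genes (2.74% of those tested), and on day 3 in 2963 (13.8%). Of the 1222 genes, 936 differed between the genotypes on day 3 only, 91 at day 0 only, 70 on both days and 125 on neither. The differences were spread over the genome, with called shares between 4.71% of the tested genes on chromosome 8 and 7.41% on chromosome 9. Chromosome 9 holds the Sub1 locus, and chromosome 12, which does not, had a close share of 7.22%.

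**Figure D1:**
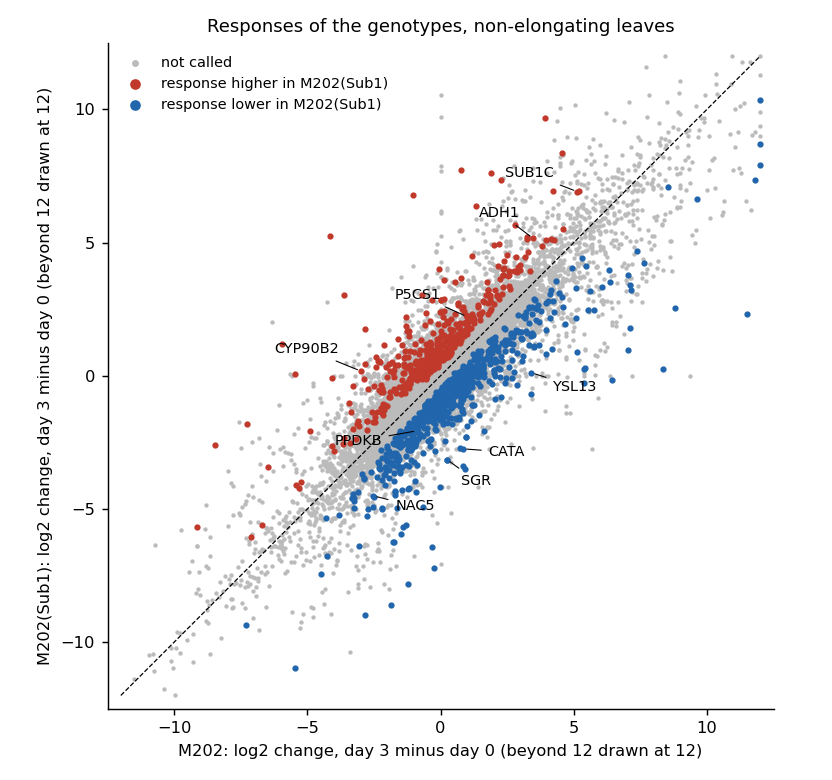
Log2 change from day 0 to day 3 of each tested gene in M202 (horizontal axis) and M202(Sub1) (vertical axis), non-elongating leaves, with values beyond 12 drawn at 12 and the line of equal response dashed. The 476 genes above the line in red and the 746 below it in blue passed the threshold, and most genes lie along the line.

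Chlorophyll breakdown and the recycling of leaf nitrogen held some of the best separated genes. Of 8 tested members of the senescence and chlorophyll breakdown list, 4 had a lower response in M202(Sub1) and 0 a higher one. Among all tested genes 3.48% were lower and 2.22% higher. The median difference of the list was -1.3, against -0.00408 over all tested genes. The 4 called members were SGR, NYC1, GDH2 and RCCR1.

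SGR (OS09G0532000), the stay-green protein that takes the magnesium out of chlorophyll as its breakdown begins, stood at 84.3, 110 and 127 CPM (its counts relative to all counts of a library, on a fixed scale) in the 3 libraries of M202 at day 0 and at 133, 123 and 123 on day 3. In M202(Sub1) it stood at 211, 159 and 151 CPM at day 0 and at 20.3, 23.7 and 14.6 on day 3. The level thus changed little in M202 and dropped in M202(Sub1), where all day 3 libraries lay below every other library. All day 0 libraries of M202(Sub1) lay above those of M202, so part of the difference of responses lay in the higher start. The difference of responses was -3.39 ± 0.34 (log2, SE of the fit; adjusted p = 1.04e-09).

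NYC1 (OS01G0227100), a chlorophyll b reductase that starts the breakdown of the antenna pigment, stood at 206, 214 and 221 CPM in M202 at day 0 and at 268, 251 and 259 on day 3. Its levels in M202(Sub1) were 211, 186 and 194 CPM at day 0 and 87.9, 106 and 84.4 on day 3. It rose in M202, fell in M202(Sub1), and differed by -1.37 ± 0.15 (adjusted p = 4.11e-09). NOL (OS03G0654600), the partner subunit of NYC1, differed by -0.22 ± 0.20 and did not pass (adjusted p = 0.628).

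GDH2 (OS04G0543900), a glutamate dehydrogenase that releases ammonium from amino acids, stood at 23.6, 35.4 and 31.7 CPM in M202 at day 0 and at 68.5, 68.8 and 68 on day 3. M202(Sub1) had 18.1, 27 and 28.9 CPM at day 0 and 19.9, 18.1 and 16.8 on day 3. The rise of M202 had no counterpart in M202(Sub1), and the difference was -1.61 ± 0.25 (adjusted p = 1.01e-05). RCCR1 (OS10G0389200), a reductase of red chlorophyll breakdown products, rose in both genotypes, to 47, 44.7 and 52.7 CPM in M202 and to 22.5, 17.9 and 20.4 in M202(Sub1). Its difference of -1.15 ± 0.36 (adjusted p = 0.0455) passed narrowly: it missed the threshold with upper-quartile scaling, with only the 4 groups fitted and in 10 of the 12 fits that left out 1 library, with adjusted p up to 0.169.

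**Figure D2:**
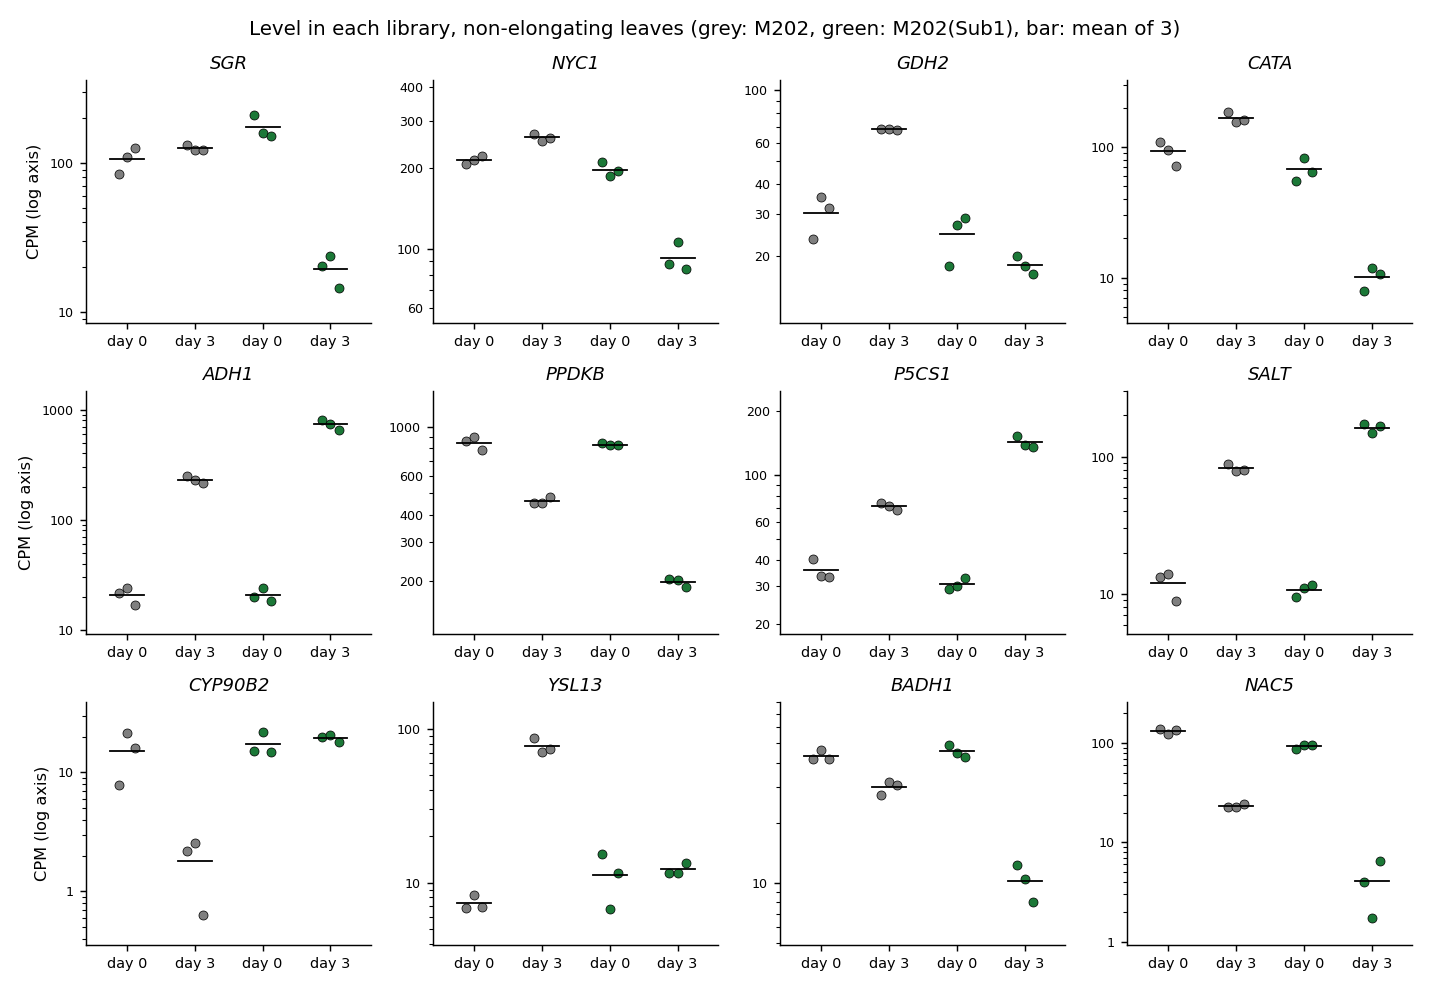
CPM of 12 named genes in each library (points, log axes) of M202 (grey) and M202(Sub1) (green) at day 0 and day 3, with the mean of 3 as a bar. SGR and CATA are low in the day 3 libraries of M202(Sub1) alone, YSL13 is high in those of M202 alone, and ADH1 rises in both genotypes and further in M202(Sub1).

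Chlorophyll synthesis moved the other way in a pair of its 10 tested genes, and none of the 10 had a lower response. Among all tested genes 2.22% were higher and 3.48% lower. PORB (OS10G0496900), the light-driven reductase of protochlorophyllide, stood at 575, 511 and 468 CPM in M202 at day 0 and fell to 260, 276 and 302 on day 3. In M202(Sub1) it was 399, 413 and 507 CPM at day 0 and 389, 378 and 448 on day 3, and the difference of responses was 0.77 ± 0.17 (adjusted p = 0.0028). CHLD (OS03G0811100), a subunit of the magnesium chelatase, rose in both genotypes and further in M202(Sub1) (difference 0.67 ± 0.17, adjusted p = 0.0108). Its call was lost without M202 day 0 replicate 1 or M202 day 3 replicate 1, with adjusted p up to 0.0676.

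The light-harvesting genes that were tested were not among the called. Of 25 genes written for the list of photosystems and antennae, 6 could be checked for place and were used. The other antenna genes written were not examined. LHCB1_CAB1R, LHCB1_CAB2R, LHCB2 and LHCB3 differed by between -0.12 and 0.31, with adjusted p of 0.579 or more. Of 6 tested genes of the photosystems and antennae only PSBQ passed, at 0.75 ± 0.23 (adjusted p = 0.0443), a call that was lost with RLE scaling, with only the 4 groups fitted and without any of 9 libraries in turn. In the Calvin cycle, the small subunit genes of Rubisco RBCS2 and RBCS3 differed by -0.20 ± 0.23 and 0.29 ± 0.27 and did not pass. RCA, the activase of Rubisco, fell in both genotypes and further in M202(Sub1), by -0.98 ± 0.27 (adjusted p = 0.0187). That call was lost without any 1 of 5 libraries (M202 day 0 replicate 3, M202(Sub1) day 0 replicate 2, M202 day 3 replicates 1 and 2, M202(Sub1) day 3 replicate 2), with adjusted p up to 0.0736.

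Fermentation lets glycolysis run on without oxygen by turning pyruvate into ethanol. Of 6 tested genes of its list, 5 rose and 1 fell in each genotype's own response. That response passed for 51.2% of all tested genes in M202 and 52.3% in M202(Sub1). The difference of responses was called higher for ADH1 and lower for PPDKB, beside 2.22% and 3.48% of all tested genes. ADH1 (OS11G0210300), the main alcohol dehydrogenase, stood at 21.6, 24.1 and 16.8 CPM in M202 at day 0 and at 19.8, 23.8 and 18.2 in M202(Sub1). On day 3 it reached 248, 227 and 217 CPM in M202 and 811, 745 and 658 in M202(Sub1). The starting levels overlapped and the day 3 levels did not. The difference of responses was 1.70 ± 0.22 (adjusted p = 5.26e-07).

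ADH2 (OS11G0210500), its neighbour on chromosome 11, had under 1 CPM in all day 0 libraries and reached 20.4, 24.7 and 20.3 CPM in M202 and 142, 128 and 142 in M202(Sub1) on day 3. The levels on day 3 differed between the genotypes by 2.65 ± 0.21 (log2, adjusted p = 4.48e-14). With so few counts at day 0, the difference of responses of 2.68 ± 0.97 did not pass (adjusted p = 0.0987), although it did with DESeq2. ADH1 and ADH2 are related in sequence and may share reads.

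PDC1 (OS05G0469600), a pyruvate decarboxylase that feeds these enzymes, had no count in any day 0 library of these leaves, so its difference of responses could not be estimated. On day 3 it reached 10.8, 9.03 and 7.18 CPM in M202 and 29.3, 33.1 and 22.6 in M202(Sub1), which differed by 1.65 ± 0.21 (adjusted p = 1.23e-07). Against a floor of 3 counts per library these levels were at least 18.5-fold higher than day 0 in M202 and at least 60.5-fold higher in M202(Sub1).

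PPDKB (OS05G0405000), a pyruvate phosphate dikinase that runs at the pyruvate step of glycolysis, behaved in the opposite way. It stood at 861, 895 and 783 CPM in M202 at day 0 and 451, 453 and 482 on day 3, and in M202(Sub1) at 843, 823 and 825 and then between 188 and 205. It fell in both genotypes and stood lower in all day 3 libraries of M202(Sub1) than in those of M202, with a difference of -1.19 ± 0.16 (adjusted p = 4.26e-07).

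Within glycolysis and sugar use, single members of families moved apart. GAPC3 (OS02G0601300), a cytosolic glyceraldehyde phosphate dehydrogenase, rose from 15.3, 20.1 and 17.7 CPM to 116, 104 and 86.3 in M202 and from 13.9, 28 and 16 to 264, 246 and 265 in M202(Sub1). Its difference was 1.21 ± 0.25 (adjusted p = 0.00142), while its relatives GAPC1 and GAPC2 differed by -0.39 ± 0.24 and -0.47 ± 0.19 and did not pass. PGI-A (OS03G0776000), a glucose phosphate isomerase, rose further in M202(Sub1), with a difference of 0.52 ± 0.12 (adjusted p = 0.00571), a call that was lost where only the 4 groups were fitted and where no filter was set.

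The hexokinases, which phosphorylate glucose and in some cases sense it, went both ways. HXK5 (OS05G0522500) stood at 34.8, 49.4 and 53 CPM in M202 on day 3 and at 96.3, 83.2 and 99.9 in M202(Sub1), from day 0 levels of 31.8 to 39.4 CPM in both genotypes, and differed by 1.01 ± 0.23 (adjusted p = 0.0029). HXK7 (OS05G0187100) rose from 2.11 to 4.65 CPM at day 0 to 55.5, 64.5 and 67.7 CPM in M202 but to 23.7, 20.5 and 22.8 in M202(Sub1), and differed by -1.42 ± 0.32 (adjusted p = 0.0032). The sucrose synthases SUS1, SUS2, SUS4, SUS5 and SUS6 differed by between -0.78 and 0.62, and none passed, although SUS4 did without M202 day 0 replicate 1.

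Sugar starvation in rice is known to switch on the alpha amylase Amy3D through the kinases CIPK15 and SnRK1A. Amy3D (OS08G0473900) had no count in M202 at day 0 and stood at 4.79, 5.98 and 7.02 CPM on day 3, at least 12.2-fold higher. In M202(Sub1) it had 0, 0.61 and 0.344 CPM at day 0 and 0.711, 0.348 and 0 on day 3. The rise was thus measured in M202 alone, and the difference of responses passed (adjusted p = 0.00275), but not without M202(Sub1) day 0 replicate 2 (adjusted p = 0.0711). CIPK15 (OS11G0113700) rose in both genotypes, to 272, 269 and 227 CPM in M202 and to 91.6, 87.3 and 77 in M202(Sub1), from at most 2.01 CPM at day 0. Its levels differed on day 3 by -1.58 ± 0.16 (adjusted p = 8.74e-11), while the difference of responses of -1.34 ± 0.51 did not pass with edgeR (adjusted p = 0.12) and did with DESeq2.

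TPP1 (OS02G0661100), a trehalose phosphate phosphatase, stood at 63.6, 75.7 and 78.9 CPM in M202 at day 0 and fell to 47.9, 45.9 and 34.5, while M202(Sub1) had 79.9, 75.3 and 83.3 and then 91.6, 107 and 116. Its difference was 1.16 ± 0.33 (adjusted p = 0.0246), with the call lost without M202 day 0 replicate 3, M202(Sub1) day 0 replicate 2 or replicate 3 of either day 3 group (adjusted p up to 0.0707). SUT1 (OS03G0170900), a sucrose transporter that loads the phloem, fell in both genotypes and further in M202(Sub1), by -0.70 ± 0.19 (adjusted p = 0.0158). It missed the threshold without M202(Sub1) day 0 replicate 3 or day 3 replicate 3 (adjusted p up to 0.0724).

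At the Sub1 locus, the ethylene response factors beside SUB1A rose in both genotypes. SUB1C (OS09G0287000) stood at 12.2, 9.5 and 6.34 CPM in M202 at day 0 and at 358, 386 and 257 on day 3. In M202(Sub1) it stood at 4.3, 4.27 and 2.41 CPM at day 0 and at 439, 406 and 499 on day 3. The genotypes were thus apart in the opposite sense on the 2 days, and the difference of responses was 1.78 ± 0.36 (adjusted p = 0.000759).

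SUB1B (OS09G0286600) had 31.4, 23.2 and 27.2 CPM in M202 at day 0 and 175, 158 and 153 on day 3, against 13.5, 12.5 and 6.88 and then 175, 181 and 156 in M202(Sub1). Its day 3 levels overlapped between the genotypes, so the difference of 1.38 ± 0.25 (adjusted p = 0.000199) lay in the lower start of M202(Sub1). The lines may carry different alleles of both genes, and SUB1A, SUB1B and SUB1C are alike in sequence, so reads may be shared or lost between them, which was not tested.

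ERF66 and ERF67, group VII factors outside the locus, also rose in both genotypes. ERF66 (OS03G0183000) reached 928, 882 and 1160 CPM in M202 and 981, 1110 and 1090 in M202(Sub1), with a difference of responses of 0.69 ± 0.24 that did not pass with edgeR (adjusted p = 0.0826) and did with DESeq2. ERF67 (OS07G0674800) reached 14.9, 13.4 and 9.89 CPM in M202 and 50.8, 53.1 and 45.4 in M202(Sub1), from under 0.6 CPM at day 0. Its levels differed on day 3 by 1.96 ± 0.22 (adjusted p = 9.82e-10), and its difference of responses of 1.53 ± 1.10 did not pass (adjusted p = 0.506). EREBP1 (OS02G0782700), the other tested member of this list, went the other way. Its change (log2) was 0.01 in M202 and -0.73 in M202(Sub1), a difference of -0.74 ± 0.20 (adjusted p = 0.0158). The call was lost without any of 4 libraries in turn (adjusted p up to 0.0711). Of 5 tested members, 2 were called higher and 1 lower, beside 2.22% and 3.48% of all tested genes.

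Of the genes of hormone synthesis and perception, 1 of 10 tested passed for ethylene, 1 of 10 for gibberellin, 1 of 17 for abscisic acid and 1 of 12 for jasmonate, beside 5.70% of all tested genes. ACO1 (OS09G0451000), which makes ethylene from its precursor, fell from 10.1, 8.97 and 6.71 CPM to 3.84, 4.07 and 3.35 in M202 and from 9.17, 12.6 and 13.4 to 0.711, 1.74 and 0.912 in M202(Sub1). It differed by -2.20 ± 0.61 (adjusted p = 0.0198), and not past the threshold without M202(Sub1) day 3 replicate 1 or 3 (adjusted p up to 0.0813). COI1a (OS01G0853400), a jasmonate receptor, rose in M202(Sub1) from 154, 148 and 154 to 304, 256 and 297 CPM, against 131, 144 and 161 and then 151, 153 and 175 in M202, a difference of 0.77 ± 0.17 (adjusted p = 0.00271).

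For gibberellin, the hormone of shoot elongation, the growth repressor SLR1 differed by -0.76 ± 0.39 and the receptor GID1 by 0.22 ± 0.21, and neither passed. The called member was KS1, an early enzyme of gibberellin synthesis, at -0.83 ± 0.26 (adjusted p = 0.0443). It missed the threshold with upper-quartile scaling, with only the 4 groups fitted and without any of 8 libraries in turn (adjusted p up to 0.199).

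Among brassinosteroid and cytokinin genes, 2 of 10 tested had a higher response and 1 a lower one, beside 2.22% and 3.48% of all tested genes. CYP90B2 (OS03G0227700), the rate-limiting hydroxylase of brassinosteroid synthesis, had the largest positive difference among the called genes with a name and at least 10 CPM in 1 of the 4 groups. It stood at 7.91, 21.5 and 16 CPM in M202 at day 0 and at 2.19, 2.54 and 0.638 on day 3. M202(Sub1) had 15.1, 21.8 and 14.8 CPM at day 0 and 19.9, 20.5 and 17.9 on day 3. The fall was seen in M202 alone, and the difference of responses was 3.17 ± 0.42 (adjusted p = 5.29e-07).

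CYP85A1, a later oxidase of the same pathway, had a difference of the other sign, -1.18 ± 0.34 (adjusted p = 0.0263), which was not called without any of 7 libraries in turn. RR9 (OS11G0143300), a cytokinin response regulator, fell from 78.3, 89.6 and 95.3 CPM to 4.11, 7.89 and 4.15 in M202 and from 54.9, 51.2 and 61.6 to 7.11, 8 and 8.39 in M202(Sub1), a difference of 1.16 ± 0.28 (adjusted p = 0.00704). All day 0 libraries of M202(Sub1) lay below those of M202 for RR9, and the day 3 levels overlapped. Part of its difference thus lay in the lower start of M202(Sub1). RR10, a near-identical copy of RR9, differed by 0.70 ± 0.28 (adjusted p = 0.149), which passed without M202 day 3 replicate 2, and reads of the copies may be shared.

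Of 11 tested enzymes that make or remove reactive oxygen, 4 had a lower response and 1 a higher one, beside 3.48% and 2.22% of all tested genes. The median difference of the list was -0.45, against -0.00408 over all tested genes. CATA (OS02G0115700), a catalase that breaks down hydrogen peroxide, had the largest negative difference among the called genes with a name and at least 10 CPM in 1 of the 4 groups. It stood at 110, 95.2 and 71.6 CPM in M202 at day 0 and 186, 154 and 160 on day 3, and in M202(Sub1) at 54.9, 82.7 and 64.5 and then 7.96, 11.8 and 10.6. It rose in M202 and fell in M202(Sub1), and the difference was -3.59 ± 0.28 (adjusted p = 5.2e-13), while its relative CATB differed by -0.24 ± 0.19 and did not pass.

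SODCC1 (OS03G0351500), a cytosolic superoxide dismutase, fell to 163, 141 and 135 CPM in M202 and to 74.9, 83.2 and 77.5 in M202(Sub1), from 278 to 314 and from 308 to 384 CPM at day 0 (difference -1.13 ± 0.17, adjusted p = 6.17e-06). APX2 (OS07G0694700), a cytosolic ascorbate peroxidase, fell in both genotypes and further in M202(Sub1), from a higher start, with a difference of -1.02 ± 0.21 (adjusted p = 0.00139). GR2, which regenerates glutathione, differed by -0.73 ± 0.18 (adjusted p = 0.00681). The exception was SODA (OS05G0323900), the mitochondrial superoxide dismutase, which rose further in M202(Sub1) by 0.61 ± 0.17 (adjusted p = 0.0226), a call lost with only the 4 groups fitted and without any of 5 libraries in turn (adjusted p up to 0.105).

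The dehydration genes split evenly, with 2 higher and 2 lower of 11 tested, beside 2.22% and 3.48% of all tested genes. P5CS1 (OS05G0455500), which makes proline, rose from 40.2, 33.4 and 33.2 CPM to 74.2, 71.9 and 68.8 in M202 and from 29.2, 30.2 and 32.9 to 153, 139 and 136 in M202(Sub1). All day 3 libraries of M202(Sub1) lay above those of M202, with a difference of 1.21 ± 0.16 (adjusted p = 9.24e-07). SALT (OS01G0348900), a salt-induced lectin, rose from 13.3, 14.1 and 8.95 CPM to 88.2, 78.4 and 80.1 in M202 and from 9.46, 11 and 11.7 to 173, 149 and 166 in M202(Sub1) (difference 1.18 ± 0.23, adjusted p = 0.000532).

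On the lower side were a dehydrin and a NAC factor of the stress response. DHN1 (OS02G0669100) fell from 28.6, 27.3 and 29.8 CPM to 8.49, 7.63 and 9.25 in M202 and from 21.2, 32.5 and 36.8 to 3.41, 2.09 and 1.46 in M202(Sub1) (difference -1.90 ± 0.46, adjusted p = 0.00651). NAC5 (OS11G0184900) fell from 139, 125 and 135 CPM to 22.5, 23 and 24.3 in M202 and from 88.2, 95.1 and 95.5 to 3.98, 1.74 and 6.56 in M202(Sub1) (difference -1.99 ± 0.36, adjusted p = 0.000133). Both fell in both genotypes, and the day 3 levels did not overlap.

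The aldehyde dehydrogenases BADH1 and BADH2, known for oxidising betaine aldehyde and related amino aldehydes, also fell further in M202(Sub1). BADH1 (OS04G0464200) went from 41.7, 46.4 and 41.8 CPM to 27.4, 31.8 and 31 in M202 and from 49, 44.8 and 42.7 to 12.2, 10.4 and 8.02 in M202(Sub1), a difference of -1.61 ± 0.27 (adjusted p = 4.33e-05). BADH2 (OS08G0424500), the fragrance gene of rice, differed by -0.89 ± 0.19 (adjusted p = 0.00181).

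The called members of the metal transport, potassium and sodium transport and aquaporin lists all had a lower response in M202(Sub1). In the potassium and sodium list this was 1 of 8 tested genes, beside 5.70% of all tested genes. The median difference was 0.13 in the metal transport list and -0.013 in the potassium and sodium list, against -0.00408 over all tested genes. YSL13 (OS04G0524500), of a family of transporters of metal complexes, rose in M202 from 6.78, 8.27 and 6.9 CPM to 87.8, 70.6 and 73.9. In M202(Sub1) it stood at 15.3, 6.71 and 11.5 CPM at day 0 and at 11.5, 11.5 and 13.5 on day 3. The rise was measured in M202 alone, with a difference of -3.29 ± 0.32 (adjusted p = 2.63e-10). Among 11 tested metal transport genes, YSL6 was the other that passed (-0.59 ± 0.14, adjusted p = 0.00523), beside 5.70% of all tested genes. The list was written after YSL13 had been seen among the called genes.

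HKT2-1 (OS06G0701700), a sodium transporter, reached 26.4, 25.4 and 26 CPM in M202 and 12.2, 11.8 and 18.4 in M202(Sub1), from 5.03 to 10.5 CPM at day 0 (difference -1.23 ± 0.27, adjusted p = 0.00216). Aquaporins, the channels of water, had 3 lower and 0 higher of 12 tested, beside 3.48% and 2.22% of all tested genes. Their median difference was -0.66, against -0.00408 over all tested genes. TIP1-1 (OS03G0146100), of the vacuolar membrane, stood at 68.8, 66 and 56.3 CPM in M202 on day 3 and at 33.6, 35.1 and 24.3 in M202(Sub1), from 47.5 to 71.6 CPM at day 0 (difference -1.23 ± 0.27, adjusted p = 0.00184). The others, TIP2-2 (-0.71 ± 0.20, adjusted p = 0.0224) and PIP2-1 (-0.61 ± 0.19, adjusted p = 0.0402), missed the threshold without any of 4 and any of 8 libraries in turn and with only the 4 groups fitted, and PIP2-1 also with upper-quartile scaling.

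Protein folding in the endoplasmic reticulum and protein turnover had the most called members of any list. Of 14 tested, 6 were lower and 0 higher, beside 3.48% and 2.22% of all tested genes, and the median difference was -0.57. BIP1 (OS02G0115900), the main chaperone of that compartment, stood at 31.5, 42.1 and 41.6 CPM in M202 at day 0 and 54.2, 57.4 and 46.1 on day 3, and in M202(Sub1) at 58.8, 63.2 and 45.2 and then 28.7, 25.2 and 28.3. It fell in M202(Sub1), and its difference was -1.49 ± 0.30 (adjusted p = 0.000971). All day 0 libraries of M202(Sub1) lay above those of M202 for BIP1, so part of its difference lay in the higher start. CRT1 (OS07G0246200), a calreticulin that holds unfinished glycoproteins, stood at 174, 174 and 143 CPM in M202 on day 3 and at 87.5, 78.8 and 91 in M202(Sub1) (difference -1.13 ± 0.18, adjusted p = 1.22e-05). CLPD1 and HSP81-1 differed by -0.81 ± 0.22 and -0.83 ± 0.23. CLPD1 missed the threshold without M202 day 0 replicate 3 or M202(Sub1) day 0 replicate 1, and HSP81-1 without M202 day 0 replicate 1 or M202(Sub1) day 0 replicate 2 (adjusted p up to 0.0851). This list, too, was written after results had been seen.

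Of 8 tested WRKY factors and defence genes, 2 rose less in M202(Sub1) and 0 rose more. Among all tested genes the response was lower for 3.48% and higher for 2.22%. WRKY71 (OS02G0181300), a transcription factor induced by pathogens, rose from 6.28, 6.33 and 6.71 CPM to 40.8, 54.2 and 31.9 in M202. In M202(Sub1) it started at 14.3, 16.2 and 15.5 CPM and reached 38.1, 36 and 29.9, so the day 3 levels overlapped and the difference of -1.54 ± 0.34 (adjusted p = 0.00254) lay largely in the higher start. NPR1 (OS01G0194300), the salicylic acid receptor, differed by -1.10 ± 0.32 (adjusted p = 0.0274), a call lost without any of 5 libraries in turn (adjusted p up to 0.161). In the separate list of phenylpropanoid and flavonoid genes, 1 of 9 tested was called, beside 5.70% of all tested genes. It was PAL (OS02G0627100), a gene for the entry enzyme of phenylpropanoid synthesis. PAL rose from 14.3, 24.5 and 16.8 CPM to 65.9, 53.3 and 45.2 in M202, against 14.3, 24.2 and 18.6 and then 21, 27.5 and 20.2 in M202(Sub1). Its difference of -1.31 ± 0.33 (adjusted p = 0.0094) missed the threshold without M202(Sub1) day 0 replicate 2 (adjusted p = 0.0622).

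In the lists of growth and cell walls, called members are to be read beside the 5.70% of all tested genes. None of 6 tested cell division genes and none of 5 growth-regulating factors passed with edgeR, with 1 of each at an unadjusted p under 0.05 and 0 of each with DESeq2. For 2 of the cell division genes DESeq2 gave no adjusted p, so it could not call them. Of 7 expansins, which loosen cell walls, EXPB11 had a lower response (-1.27 ± 0.37, adjusted p = 0.028) that was not called with only the 4 groups fitted or without any of 6 libraries in turn. Of 8 cellulose synthases CESA3 had one (-0.54 ± 0.16, adjusted p = 0.0373), lost without any of 7 libraries in turn, with upper-quartile scaling, with no filter and with only the 4 groups fitted. The summed level of the cell division markers lay between 22.9 and 34.7 CPM in the 12 libraries. Of 3 root markers, 2 or 1 were at 0 in each group, with sums between 0.365 and 6.4 CPM. Sums over 14 expansins, tested or not, were 160 to 185 CPM on day 3 for M202, against 85 to 101 for M202(Sub1). At day 0 they overlapped (58.1 to 121 against 57.5 to 103). For 9 cellulose synthases the day 3 sums were 1740 to 1910 against 1150 to 1280 CPM. These were already apart at day 0 (2580 to 2900 against 2070 to 2280). Day 3 sums of growth-regulating factors overlapped. No sum was tested.

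**Figure D3:**
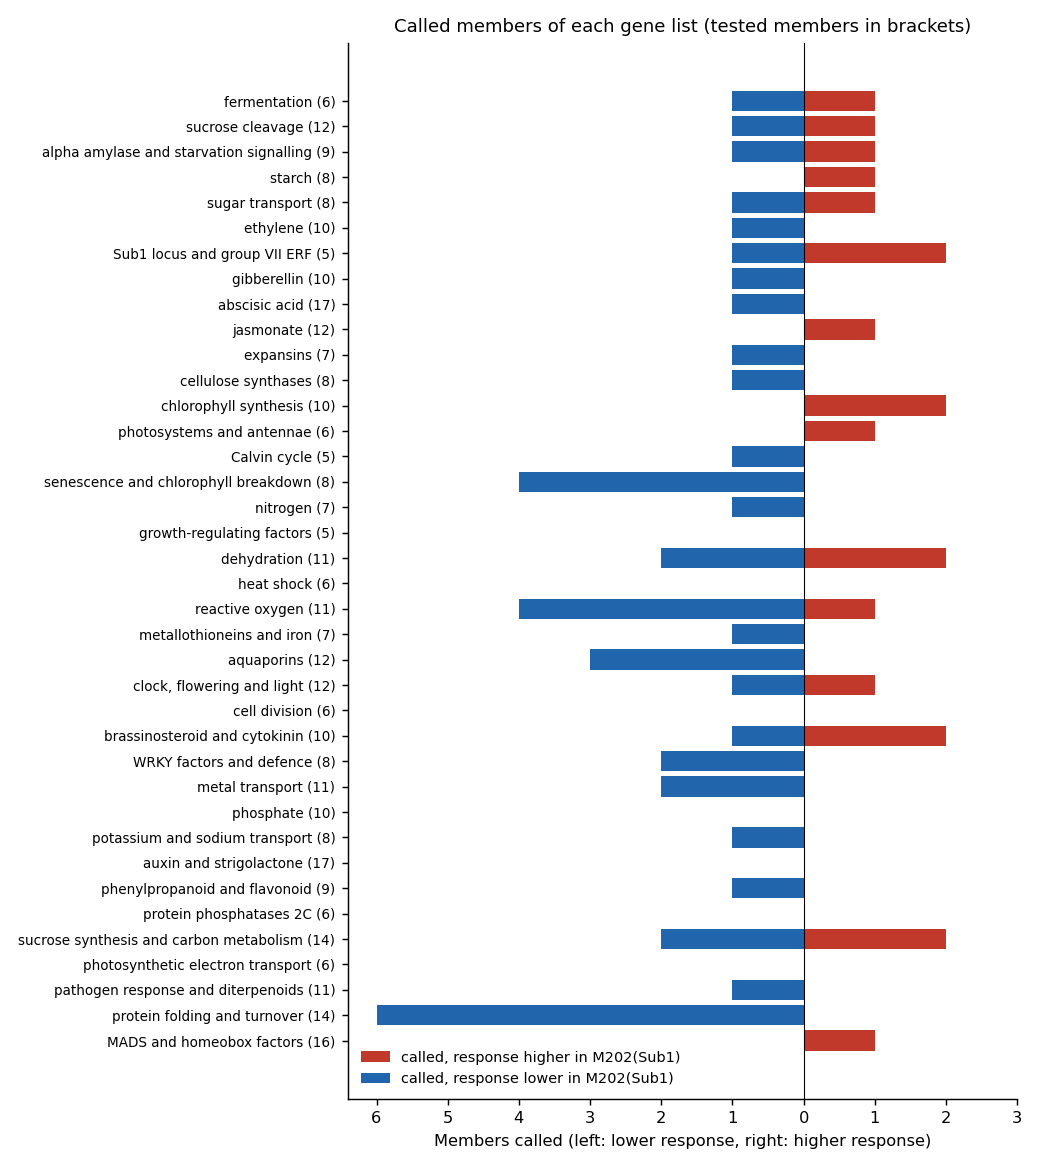
Members of each gene list with at least 5 tested genes that passed the threshold, with a lower response in M202(Sub1) drawn to the left and a higher one to the right, and the number tested in brackets. Protein folding and turnover (6 lower of 14), senescence and chlorophyll breakdown (4 of 8) and reactive oxygen (4 lower, 1 higher of 11) have the longest bars to the left. Of all tested genes, 3.48% were called lower and 2.22% higher.

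**Figure D4:**
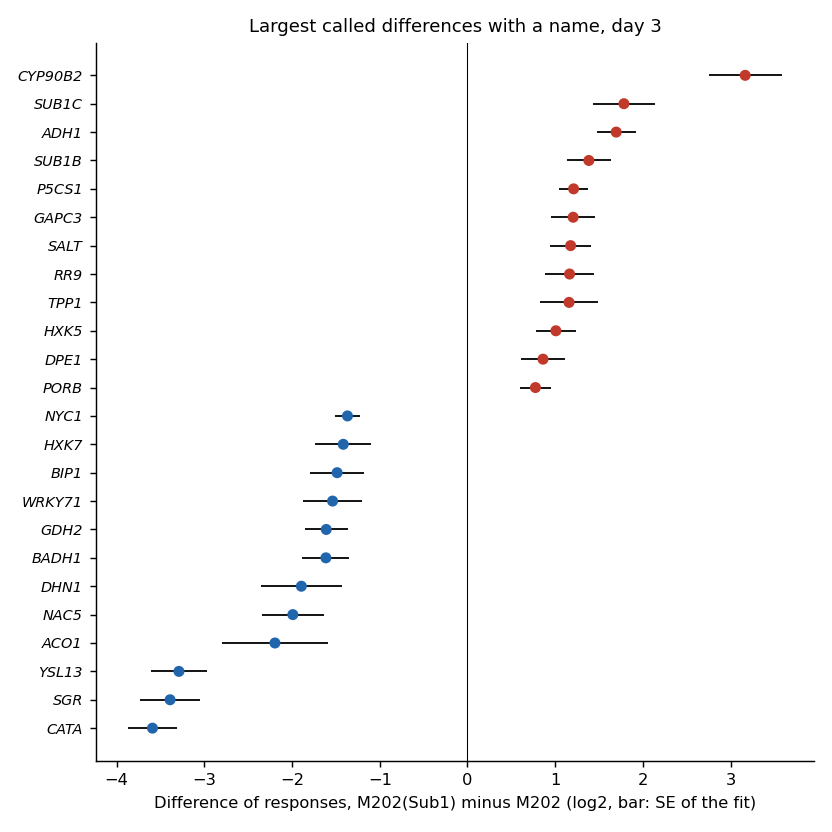
Difference of responses (log2, M202(Sub1) minus M202) of the 12 called genes with a name and at least 10 CPM in 1 of the 4 groups that had the largest values in each direction, with the SE of the fit. CYP90B2 at 3.17 is the highest, and CATA, SGR and YSL13 lie below -3.

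Among genes at the same CPM minimum for which no name was used, some had larger differences. OS10G0409400 had no count in M202 at day 0 and 1280, 1230 and 1220 CPM on day 3, at least 2550-fold higher, while M202(Sub1) had 0, 2.74 and 0.344 CPM at day 0 and 408, 415 and 472 on day 3. Without M202(Sub1) day 0 replicate 2 its call was lost (adjusted p = 0.127). OS12G0527700 had no count in M202 at day 0 and 60.5, 56.6 and 41.5 CPM on day 3, at least 108-fold higher, against 0.717, 2.13 and 1.38 and then 7.11, 6.96 and 7.29 in M202(Sub1) (adjusted p = 2.42e-09). Both rose in both genotypes and stood higher in M202 on day 3.

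The highest were OS11G0182900 and OS10G0546400. OS10G0546400 rose from 0.754, 1.06 and 0 CPM to 8.08, 9.92 and 11.6 in M202 and from 0, 0 and 0.172 to 57.4, 44.2 and 70.9 in M202(Sub1) (difference 5.75 ± 1.18, adjusted p = 0.00105). OS11G0182900 had counts in M202 in only 1 of these libraries, day 0 replicate 1 (0.503 CPM), and rose in M202(Sub1) from 1.43, 1.98 and 1.38 to 13.2, 15.3 and 11.5 CPM. Its call (adjusted p = 0.0203) was lost without that library. In 25 of the 1222 called genes at least 1 of the 4 groups had no count, so their fitted differences are no measure of size.

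The leaf that was still elongating was measured in separate libraries, in which 1207 genes (5.63%) passed in the same comparison on day 3, 364 higher (1.70%) and 843 lower (3.93%). Both leaf types shared 438 called genes of the same direction, 35.8% of the list of non-elongating leaves and 36.3% of that of elongating leaves, and 2 were called in opposite directions. Of the 1222 genes, 1098 (89.9%) had the same sign in elongating leaves, against 64.1% of all tested genes. The share called the same way was 25.2% for the higher and 42.6% for the lower genes.

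A test of the difference between the leaf types themselves, added after the data had been seen, passed for 19 genes (0.0886% of those tested), 13 of them among the 1222. CATA differed by -2.19 between the leaf types (adjusted p = 0.00459), from -3.59 in non-elongating and -1.41 in elongating leaves. P5CS1 differed by 1.05 (adjusted p = 0.0416), from 1.21 and 0.15. For most other named genes the values in elongating leaves were of the same sign, such as 1.71 for ADH1, -1.73 for SGR, -0.84 for NYC1, -2.09 for GDH2 and 1.90 for SUB1B, all past the threshold there.

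On days 1 and 6 the same comparison in non-elongating leaves gave 1173 (5.47%) and 1371 (6.39%) called genes. These comparisons share their day 0 libraries with that of day 3 and are given side by side only. SGR differed by -3.61, -3.39 and -3.66 on days 1, 3 and 6, NYC1 by -1.48, -1.37 and -1.02, and ADH1 by 1.70, 1.70 and 2.60. GDH2 did not pass on day 1 (-0.40, adjusted p = 0.464) and passed on days 3 and 6 (-1.61 and -1.42). HXK7 likewise went from -0.08 on day 1 (adjusted p = 0.968) to -1.42 and -1.17, while BIP1 passed on days 1 and 3 (-1.57 and -1.49) and not on day 6 (-0.77, adjusted p = 0.133). Changes between the days were not tested.

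**Figure D5:**
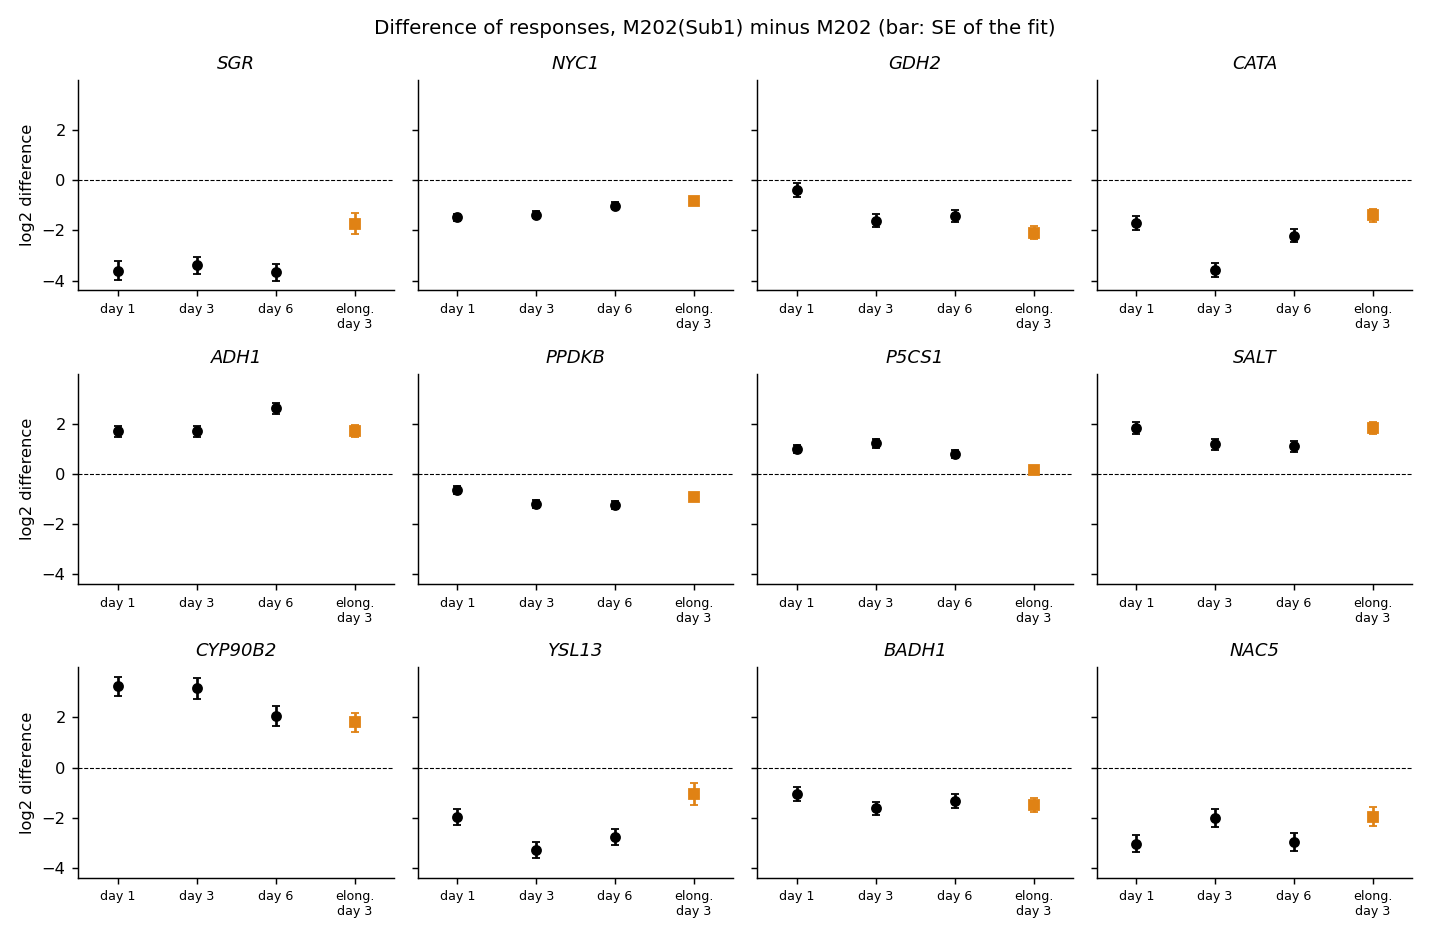
Difference of responses (log2, with the SE of the fit) of 12 named genes on days 1, 3 and 6 in non-elongating leaves (black circles) and on day 3 in elongating leaves (orange squares), with 0 dashed. SGR stays between -3.66 and -3.39 in non-elongating leaves and is at -1.73 in elongating ones, and P5CS1 is at 1.21 and 0.15 on day 3.

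The 12 libraries held between 5128552 and 7536900 counts, and replicates of a group correlated between 0.968 and 0.979 over genes. A count of 0 allows up to 0.377 to 0.559 CPM (3 counts), depending on the library. The called genes were more abundant than the tested ones (median CPM 42.1 against 11.8), so weakly expressed genes could pass less often at this depth. The shares of called members in the gene lists, 19.3% in the first and 12.8% in the second set of lists, stand beside the 5.70% of all genes, and their members were also more abundant (median CPM 35.3 and 27.4).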

How the data were processed

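RNA sequencing of rice leaves was deposited by the authors as raw counts per gene and library, of which all 48 value columns could be matched to the labels. The submitters' processing notes name STAR, the assembly IRGSP-1.0, featureCounts and DESeq2, and the versions are not given in the sources used here. Per the labels, reads were paired. In the 12 libraries compared, 67.6 to 71.1% of the counts were even, so both reads of a pair may have been counted, in which case reads are not independent. Whether strand was used in counting is not given in the sources used here, so overlapping genes cannot be told apart.

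Weakly counted genes were removed with filterByExpr (minimum count 10, minimum total 15), and libraries were scaled with TMM factors. All 16 groups of 3 libraries were fitted together in edgeR 4.0.16 under R 4.3.3 and tested by its quasi-likelihood F test, with 32 residual and 13.2 prior degrees of freedom and a biological coefficient of variation of 0.152. Tests were two-sided and adjusted by Benjamini and Hochberg over all 21453 tested genes, with a threshold of 0.05. Levels are CPM on the TMM-scaled library sizes. The SE, called that of the fit, is the absolute log2 difference divided by the square root of the F statistic of its test. Where a group had no count, folds were taken against 3 counts in each of its libraries, a floor that covers counting error only. After the main fit, the procedure was also run on counts simulated from the group means, library sizes and spread of these data. As alternatives, RLE and upper-quartile factors, unfiltered genes, halved counts, a replicate block, a fit of the compared groups alone, DESeq2 1.42.0 and leaving out each compared library in turn were used.

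The genes, lists and comparisons were chosen with earlier results of these data known. The lists meant to be taken over were not at hand, so 645 pairs of symbol and identifier in 44 lists were written from general knowledge. The first 32 lists were revised after their called members had been seen: aliases were added for LHCB2, LHCB3, PSBQ, HEMA1 and FBP1, and 3 doubtful pairs were dropped. The other 12 lists were added after results were seen, metal transport because YSL13 was recognised among the genes with the largest differences. A RefSeq gene table of another assembly (ASM3414082v1) gave the place of 463 pairs, which is a check of place and not of identity; 174 symbols were not in it and 8 lay on another chromosome. The restriction to checked pairs was decided after results were seen, as was the exception for SUB1B, SUB1C, ERF66 and ERF67, whose pairing no table checks. The rule for named genes took up to 12 called genes with a name per direction by the size of the difference (at least 10 CPM in 1 of the 4 groups), up to 5 members per list with the smallest adjusted p, 25 preset genes where tested, and the 2 highest and 2 lowest called genes without a name. GAPC1, GAPC2 and the other unpassed relatives named beside a called gene were added for comparison, after their values were seen. The test between leaf types was added after the data were seen. Promoter motifs were not searched.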

Additional observations from a re-analysis of the deposited data

Results flagged for a closer look

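The genotypes' responses to 3 days of submergence differed by a direct test in 1222 genes in non-elongating leaves. The same test gave 1207 genes in elongating leaves on day 3, and 1173 and 1371 genes in non-elongating leaves on days 1 and 6. These counts are given here because the effect of submergence differed between the 2 genotypes by the interaction term itself.

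Between the leaf types, the difference of responses on day 3 differed in 19 genes, 3 of them named. CATA differed by -2.19 on the log2 scale, with the lower value in non-elongating leaves. P5CS1 differed by 1.05, with the higher value in non-elongating leaves. CESA4, a cellulose synthase of secondary walls, differed by 1.62 (adjusted p = 0.00604), from -0.32 in non-elongating leaves, where it did not pass, and -1.94 in elongating leaves.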

How the results depend on the processing

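The count of 1222 genes lay between 1065 (only the 4 groups fitted) and 1571 (DESeq2) under the other settings, and between 911 (without M202(Sub1) day 3 replicate 3) and 1279 (without M202 day 3 replicate 3) when 1 library was left out. With a replicate block it was 1205, of which 1173 were shared. Same-numbered libraries of different groups had deviations from their group means correlated between -0.00338 and 0.137, above 0.1 in 5 of 18 pairs. The median was 0.0337, against -0.0313 for libraries with different numbers. Whether the replicate numbers pair the samples was not tested. The block ended the call of none of the 66 called genes among the 213 named. The share of higher genes was 39% and moved to 44.9% at most (upper-quartile factors). Fitting only the compared groups gave 386 genes in place of 588 between the genotypes at day 0 and 486 in place of 1371 on day 6, and the cause was not tested. The 19 genes that differed between leaf types became 56 with no filter and 73 with DESeq2. Leaving out 1 library gave 9955 to 10357 genes for the response of M202, 10226 to 10589 for M202(Sub1), 412 to 554 between genotypes at day 0, 2177 to 2630 on day 3, 903 to 1258 for the difference of responses on day 1, 1061 to 1681 on day 6, 847 to 1296 in elongating leaves and 9 to 25 between leaf types. No named gene with a call under either setting changed sign. Of the 66 called named genes, 34 kept their call under every alternative tried and 35 under every left-out library, while 21 lost it in at least 4 of these. RLE scaling ended 3 calls, upper-quartile scaling 4, no filter 4, halved counts 2, the fit of the 4 groups alone 14 and DESeq2 none. Genes without counts in a group have no usable estimate at this depth.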

Other observations

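Some lists not described in the report had no called member, which is to be read beside the 5.70% called of all tested genes. None of 17 tested genes of auxin and strigolactone passed with edgeR, with 6 at an unadjusted p under 0.05 and 2 called by DESeq2. None of 10 phosphate genes and none of 6 protein phosphatases 2C of abscisic acid signalling passed, with 2 and 1 at an unadjusted p under 0.05 and 0 called by DESeq2 in either list. None of 6 heat shock genes passed, with 1 at an unadjusted p under 0.05 and 1 called by DESeq2. Of 6 genes of photosynthetic electron transport 0 passed, with 1 at an unadjusted p under 0.05 and 0 by DESeq2. DESeq2 gave no adjusted p for 3 auxin and strigolactone, 1 phosphate, 1 phosphatase and 2 heat shock genes, so it could not call these.

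Of the list of clock, flowering and light genes, 2 of 12 tested passed, both of the clock, beside 5.70% of all tested genes. CCA1 (OS08G0157600), which peaks at dawn, stood at 800, 802 and 696 CPM in M202 on day 3 and at 575, 559 and 458 in M202(Sub1), with a difference of responses of -0.63 (adjusted p = 0.0217). GI (OS01G0182600), which peaks in the evening, had a difference of 0.42 (adjusted p = 0.0443). The calls were lost without any of 6 and any of 9 libraries in turn and with only the 4 groups fitted, and that of GI also with RLE scaling, with no filter and with halved counts. GLN1-2 (OS03G0223400), a cytosolic glutamine synthetase, rose in M202 from 53.9, 42.9 and 47.4 CPM to 83.8, 81.8 and 99.7 and stood at 65.9, 42.1 and 56.9 and then 48.2, 47.7 and 61.6 in M202(Sub1). Its difference of -0.94 (adjusted p = 0.0139) missed the threshold without M202(Sub1) day 0 replicate 1 (adjusted p = 0.0699). MT2B (OS05G0111300), a metallothionein, fell in both genotypes and further in M202(Sub1), by -0.90 (adjusted p = 0.0217), with the call lost without any of 6 libraries in turn.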
